A study of Mus musculus with 8 samples.

Results

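The 51 genes described here encode the machinery of DNA replication and S phase: enzymes that supply nucleotides, proteins that license and fire origins, polymerases, the sliding clamp and its loader, single-strand binding proteins, fork protection factors and the chaperones that rebuild chromatin behind the fork. They were chosen by name as a list of replication genes with the MCM helicase genes left out, and 51 of 51 were found among the 56748 genes of the count table. A filter on low counts kept 45 of the 51 among 11222 genes tested. The RNA came from monocytes with high Ly6C, the classical subset in mice, which had been sorted from spleen 7 days after an abdominal aortic aneurysm had been induced. The 4 WT libraries carried intact Olfr2, which encodes an olfactory receptor, and the 4 KO libraries came from Olfr2 KO mice. Aneurysm was induced in both genotypes, so that no library is from an untreated animal. The labels name no strain, age, sex, KO allele design or method of induction. They do not say whether each library is 1 animal, so the p-values below rest on a spread between libraries that may be technical.

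A cell copies its genome once per cycle. Licensing loads the helicase at origins in G1, CDC45 and the GINS complex activate it at the start of S phase, and primase, polymerases, clamp and ligase then synthesise both strands. Many of these genes are transcribed in late G1 and S phase under the control of E2F transcription factors, so that their transcripts are scarce in resting cells. Circulating and splenic Ly6Chigh monocytes are regarded as largely post-mitotic cells that arise from cycling progenitors in bone marrow.

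Total counts were 16111725 to 19048245 in WT and 17258427 to 21728794 in KO, and a count of 3, the upper limit that a count of 0 allows, corresponds to 0.139 to 0.186 CPM (counts scaled to a common library size). Such limits cover counting error only. Olfr2 was listed at 0 counts in all 8 libraries, so that its transcript gives no check of the genotype labels. Ly6c2 and Ccr2, defining genes of the sorted cells, stood at 4053 to 6370 and 1048 to 2258 CPM, while Pax5, Mzb1, Ncr1, Siglech, Gp9 and Gp1bb were at 0 counts throughout. Other genes of the B cell and dendritic cell lists were present: these lists, of 8 and 10 genes, summed to 185 to 372.9 and 483.8 to 2554 CPM. Libraries KO 1 and KO 2 stood apart in neutrophil granule genes, whose 11 listed genes summed to 2397 and 3733 CPM there, to 791.1 in KO 3, to 599.6 in KO 4 and to 277.8 to 602 in WT. In the count table's column names, replicates 1 and 2 of both genotypes carry numbers in the 1600s and replicates 3 and 4 numbers in the 1700s, called the 1600 and 1700 series here. The labels do not state what the numbers mean.

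Replication transcripts were more abundant in the KO libraries as a group, by an amount that differed widely between libraries. The 51 genes summed to 758.7, 926.8, 792.8 and 740.9 CPM in WT 1 to WT 4, and to 1430, 2033, 1201 and 957.6 CPM in KO 1 to KO 4. Every KO sum was above every WT sum, although KO 4 exceeded WT 2 by little. The KO mean was 1405 ± 460.5 CPM and the WT mean 804.8 ± 84.14 CPM (SD, n = 4 each), a ratio of 1.75. In bulk libraries, more cells of a type or in S phase and more RNA per cell cannot be told apart.

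Of the 45 tested genes, 41 had a positive log2 change, KO over WT, beside 49.6% of all genes tested. The median log2 change of the 45 was 0.95, beside -0.0038 over all genes tested. After Benjamini-Hochberg adjustment over all genes in edgeR's quasi-likelihood test, 3 of the 45 were higher in KO (Tipin, Rnaseh2b and Nasp), beside 0.223% of all genes, and 0 of the 45 were lower, beside 0.838%. At an unadjusted p under 0.05, 32 of the 45 were higher, beside 8.93% of all genes. At the same limit 1 was lower, Dnmt1, beside 1342 of the 11222 genes tested. For 14 of the 45, every KO library was above every WT library, beside 5.36% of all genes. These were Cdc6, Gmnn, Gins3, Pola1, Pold3, Pole2, Pcna, Rfc3, Rfc4, Lig1, Tipin, Rnaseh2b, Nasp and Slbp. A log2 change above 1 was fitted for 21 of the 45 (46.7%), beside 2.29% of all genes, and one above 2 for 10 (22.2%), beside 0.855%. Among these 10, Lig1 had 7 to 10 counts in WT and 15 to 72 in KO, and Uhrf1 3 to 21 and 12 to 79. Exo1 had 1 to 11 counts in WT and 7 to 33 in KO. Such genes passed the filter on low counts mainly through KO libraries, so that their inclusion is not separate evidence of a rise.

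The 3 calls depended on which libraries and settings were used. Leaving out any one of WT 1, WT 3, WT 4, KO 1, KO 2 or KO 3 left 0 of the 45 to 47 tested members past the threshold in edgeR. Over all genes, 0 were called higher in each of these fits except without KO 1, where 0.0348% were. The loss of calls was therefore not particular to the members. In these fits with 1 library left out, 29 to 33 members had an unadjusted p under 0.05 in either direction, beside 14.9% to 20.7% of all genes. Leaving out WT 2 gave 13 calls, beside 1.24% of all genes called higher, and leaving out KO 4 gave 18, beside 1.21%. Without both KO 1 and KO 2 there were 0 calls among members, and 0 of all genes were called higher. There, 15 of 46 tested members had an unadjusted p under 0.05, beside 15.7% of all genes. Of the 46, 37 had a positive log2 change, and the median was 0.51. With the number series as a covariate 13 members were higher, beside 0.9% of all genes. On all 8 libraries DESeq2 called 27 members higher, beside 2.9% of all genes. Calls numbered 0 in limma-voom and in edgeR with offsets for transcript length and GC content, and 0 of all genes were called higher there. In limma-voom and with offsets, 31 and 33 members had an unadjusted p under 0.05, beside 21% and 17.5% of all genes. Under RLE and upper-quartile scaling 41 members stayed positive, with 2 and 4 calls, beside 0.214% and 0.267% of all genes. With no filter on low counts, 46 of all 51 genes were positive, with a median log2 change of 0.96 and 16 calls, beside 1.01% of all genes called higher.

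**Figure D1:**
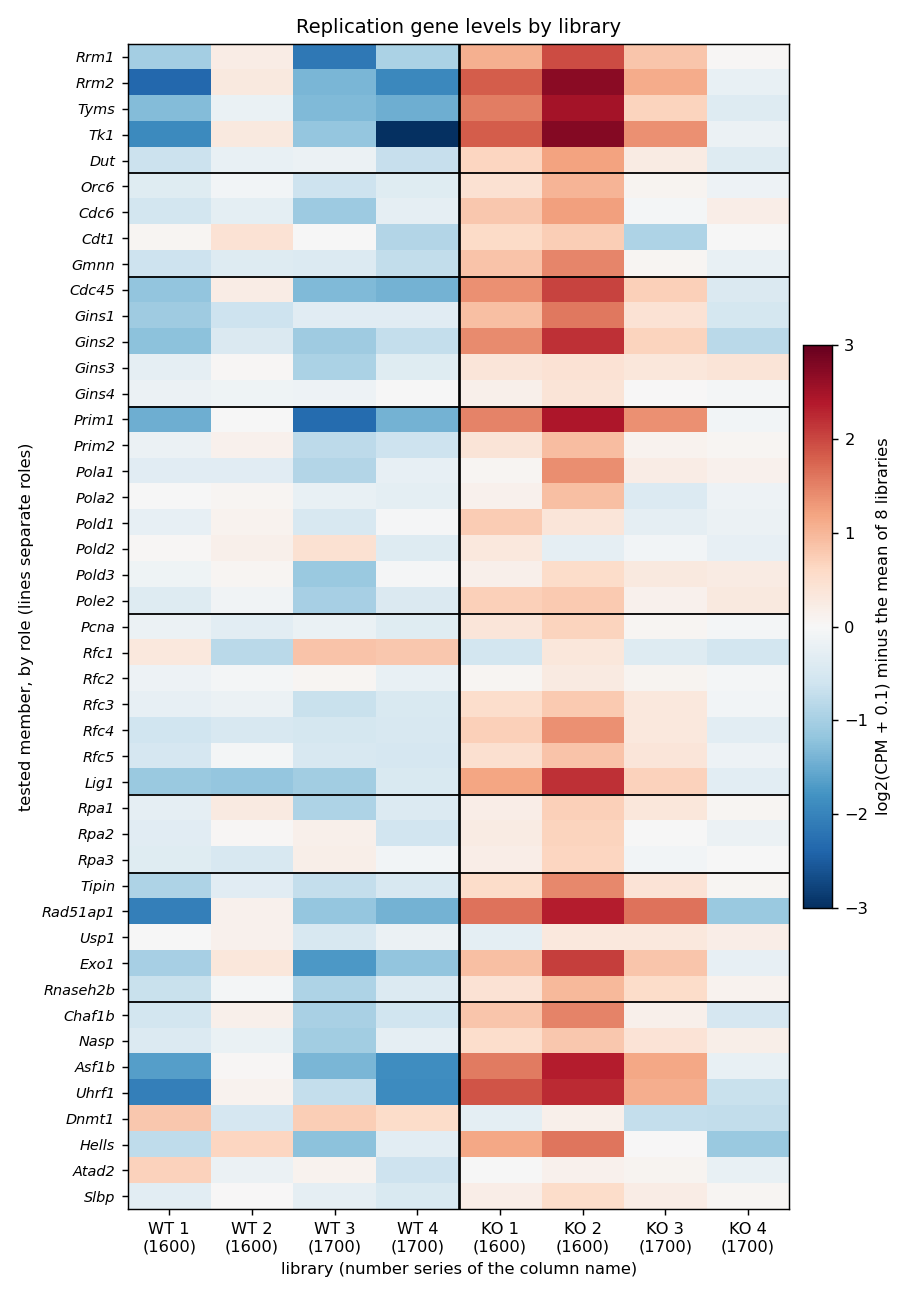
Level of each of the 45 tested replication genes (rows, grouped by role) in each library (columns), as log2(CPM + 0.1) minus the mean of the gene over the 8 libraries. KO 2 is the highest library for 40 of the 45 rows, and KO 4 is the lowest KO library for 33.

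The order of the libraries was much the same from gene to gene. KO 2 was the highest of all 8 libraries for 40 of the 45 tested members, beside 18.8% of all genes. WT 2 was the highest WT library for 31, beside 27.6%, and KO 4 was the lowest KO library for 33, beside 24.3%. KO 1, KO 2 and KO 3 were above the highest WT library for 39, 41 and 33 members, beside 21.8%, 27.1% and 23.6% of all genes. KO 4 was above it for 15, beside 21.2%, and above the mean of WT for 35, beside 48.4%. Averaged over the 45 members, log2 CPM centred on all libraries was -0.61, -0.08, -0.68 and -0.63 in WT 1 to WT 4 and 0.67, 1.20, 0.33 and -0.19 in KO 1 to KO 4. On this scale, which weights each gene equally, WT 2 and KO 4 overlapped.

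Promoters are shown first for a few genes, chosen after their values had been seen. Of these only Nasp passed the adjusted threshold in edgeR. RefSeq promoters of build GRCm38.p6 were matched for 39 of the 51 genes by symbol. Tipin and Rnaseh2b were among the 12 not matched. Each window runs from 170 bases before to 30 after the annotated start, 5′ to 3′ on the gene's strand. Capitals mark the 8-base E2F words TTTCCCGC, TTTCGCGC, TTTGCCGC and TTTGGCGC, or the CCAAT word, on either strand. The first 5 genes were taken from those that hold an E2F word and had every KO library above every WT library. Pold3 and Lig1, which also meet both conditions, are not printed. Also not printed are Dnmt1, with an E2F word and a log2 change of -0.98, and Cdt1, Pold1, Hells and Uhrf1, with the word and overlapping groups. The choice therefore shows no link between the word and the change. The last 4 hold none of these E2F words and are Nasp, which passed the test, and 3 of the genes with a log2 change above 2. Prim1 among them does hold TTCCCGCC, another E2F spelling that was counted.
Cdc6 (chr11:98907981-98908180, strand +): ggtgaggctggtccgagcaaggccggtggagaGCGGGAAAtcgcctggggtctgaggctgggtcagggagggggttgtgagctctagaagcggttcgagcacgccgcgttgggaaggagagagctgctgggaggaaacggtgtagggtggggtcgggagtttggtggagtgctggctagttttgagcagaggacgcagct
Gins3 (chr8:95633389-95633588, strand +): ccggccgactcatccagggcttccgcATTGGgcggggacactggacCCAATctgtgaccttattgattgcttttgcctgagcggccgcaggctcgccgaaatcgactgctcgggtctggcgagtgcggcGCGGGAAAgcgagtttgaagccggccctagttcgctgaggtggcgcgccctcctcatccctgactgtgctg
Pola1 (chrX:93632126-93632325, strand -): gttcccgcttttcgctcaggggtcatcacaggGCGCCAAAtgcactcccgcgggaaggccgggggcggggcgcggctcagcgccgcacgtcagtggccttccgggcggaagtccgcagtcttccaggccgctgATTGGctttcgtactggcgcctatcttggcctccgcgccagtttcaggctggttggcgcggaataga
Pole2 (chr12:69228161-69228360, strand -): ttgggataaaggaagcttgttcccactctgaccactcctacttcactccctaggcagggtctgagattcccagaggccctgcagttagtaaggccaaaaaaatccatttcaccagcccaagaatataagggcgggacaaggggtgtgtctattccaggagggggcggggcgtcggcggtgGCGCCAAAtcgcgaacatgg
Rfc3 (chr5:151651179-151651378, strand -): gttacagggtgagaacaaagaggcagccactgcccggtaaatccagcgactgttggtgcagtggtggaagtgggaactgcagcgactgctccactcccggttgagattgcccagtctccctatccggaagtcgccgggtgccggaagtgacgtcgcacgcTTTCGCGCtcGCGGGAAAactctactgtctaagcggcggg
Nasp (chr4:116627922-116628121, strand -): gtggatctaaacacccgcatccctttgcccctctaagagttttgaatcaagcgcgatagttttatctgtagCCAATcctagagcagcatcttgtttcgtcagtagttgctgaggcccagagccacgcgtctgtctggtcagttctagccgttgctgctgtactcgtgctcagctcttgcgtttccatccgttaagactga
Rrm2 (chr12:24708084-24708283, strand +): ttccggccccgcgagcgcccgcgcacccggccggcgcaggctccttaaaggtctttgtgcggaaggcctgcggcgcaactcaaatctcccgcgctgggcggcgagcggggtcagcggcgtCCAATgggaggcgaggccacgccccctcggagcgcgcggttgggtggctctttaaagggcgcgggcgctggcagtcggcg
Prim1 (chr10:128015045-128015244, strand +): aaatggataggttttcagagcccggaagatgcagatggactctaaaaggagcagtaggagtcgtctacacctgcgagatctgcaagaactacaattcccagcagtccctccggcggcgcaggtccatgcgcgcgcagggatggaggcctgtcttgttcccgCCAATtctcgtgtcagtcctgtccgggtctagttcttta
Asf1b (chr8:83955524-83955723, strand +): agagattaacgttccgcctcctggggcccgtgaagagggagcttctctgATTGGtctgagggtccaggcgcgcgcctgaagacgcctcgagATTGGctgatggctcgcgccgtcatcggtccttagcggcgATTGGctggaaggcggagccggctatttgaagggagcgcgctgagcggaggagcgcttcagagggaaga

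An E2F word was found in the 300-base promoter (250 before to 50 after the start) of 14 of the 39 genes, 35.9%, beside 4.92% of the 8256 tested genes with a promoter in the table and 2.26% of all 32851 promoters. The CCAAT word was found in 23 of the 39 (59.0%), beside 44.0% of tested genes and 37.4% of all promoters. TTTGAA, the core of the cell cycle homology region, was found in 7 (17.9%), beside 15.2% and 17.9%. The words and the window were picked after 8 spellings had been counted in 2 windows, 16 counts in all, and the pair used for E2F is the one with the widest contrast. Over the 4 E2F spellings and 2 windows, the share of the 39 genes ran from 10.3% to 61.5% and that of tested genes from 4.12% to 17.2%, a ratio of 2.45 to 7.30. The 12 tested members with an E2F word had a median log2 change of 0.87, and the 22 without one had 0.94. This split used only the 8-base words marked above and was not made for the other spellings. Rrm1, Prim1, Rfc4 and Rad51ap1, placed among the 22, hold another of the E2F spellings counted, TTCCCGCC on either strand. The split therefore does not separate genes with and without E2F-like words. A match describes these letters only and was not tested as a binding site.

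**Figure D2:**
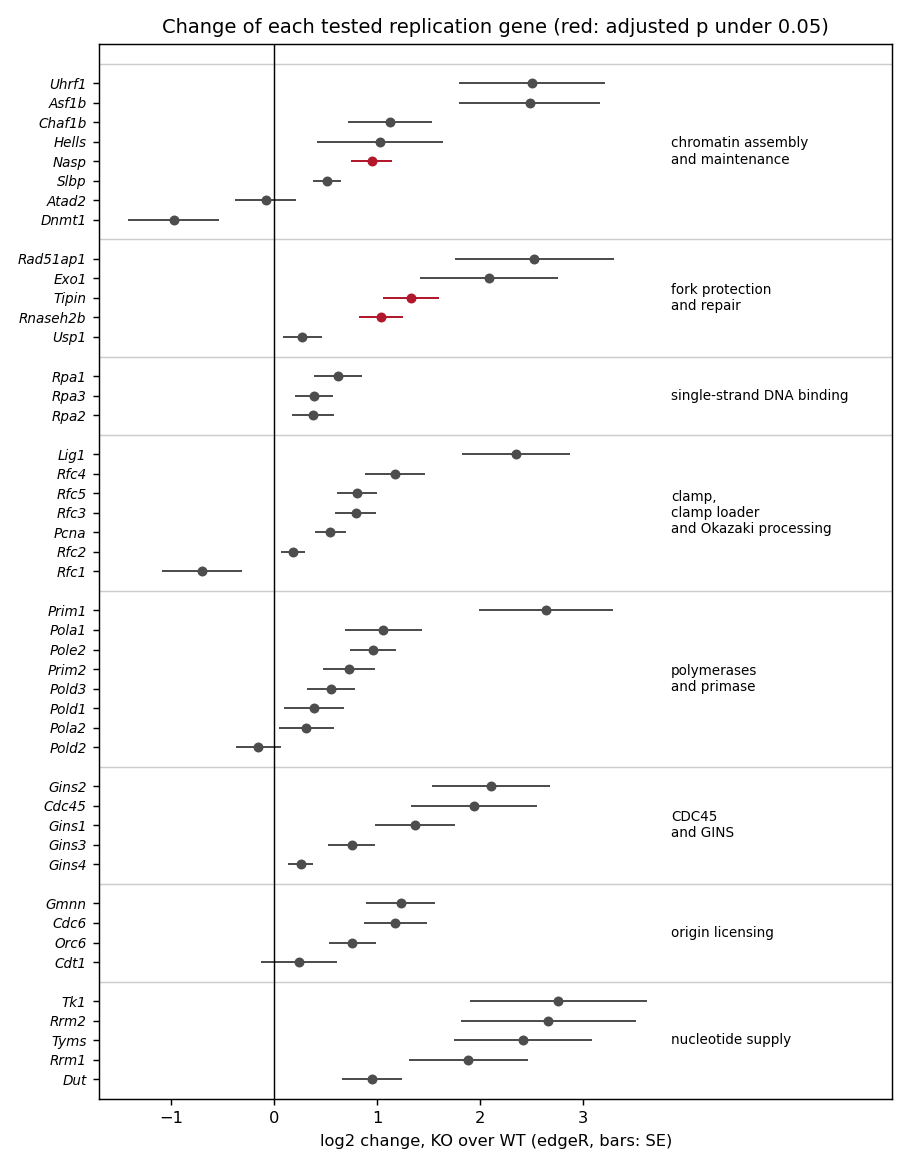
Fitted log2 change, KO over WT, of each of the 45 tested replication genes, grouped by role, with bars for the SE. Red marks the 3 genes with an adjusted p under 0.05 (Tipin, Rnaseh2b and Nasp), and 4 points lie left of 0.

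Nucleotide supply had the largest median log2 change of the 8 role groups, 2.41, with 5 of 5 genes positive, 0 past the adjusted threshold and 5 at an unadjusted p under 0.05. Tyms stood at 7.95, 17.3, 7.77 and 7.07 CPM in WT 1 to WT 4 and 57.2, 111, 31.4 and 15 CPM in KO 1 to KO 4. Tk1 stood at 1.03, 5.05, 1.78 and 0.434 CPM in WT 1 to WT 4 and 14.7, 28.3, 10.8 and 3.62 CPM in KO 1 to KO 4. For Tyms (thymidylate synthase, which makes dTMP) and Tk1 (thymidine kinase, which salvages thymidine), WT 2 was the highest WT library and above KO 4, so that the groups overlapped. The log2 change was 2.41 ± 0.67 (SE) with an adjusted p of 0.121 for Tyms, and 2.75 ± 0.86 (SE) with 0.146 for Tk1, in edgeR's test. Dut stood at 15.8, 21.2, 21.9 and 15.2 CPM in WT 1 to WT 4 and 38.6, 56.5, 29 and 18.8 CPM in KO 1 to KO 4. Dut, which hydrolyses dUTP and keeps uracil out of DNA, had the smallest change of the group, 0.95 ± 0.29 (SE), adjusted p 0.117 in edgeR's test, and KO 4 was below WT 2 and WT 3. Rrm1 and Rrm2, the subunits of ribonucleotide reductase, had log2 changes of 1.88 and 2.66. With the number series as a covariate in edgeR, Tyms and Rrm1 passed the threshold (adjusted p 0.0362 for both).

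Origin licensing genes had a median log2 change of 0.97, with 4 of 4 tested genes positive and 0 past the adjusted threshold. Gmnn stood at 24.3, 28.8, 28.3 and 22.7 CPM in WT 1 to WT 4 and 68.6, 104, 39.3 and 32.3 CPM in KO 1 to KO 4. Gmnn encodes geminin, the inhibitor of CDT1 that blocks relicensing, and every KO library was above every WT library, with KO 1 and KO 2 set apart from the rest. Its log2 change was 1.23 ± 0.34 (SE), adjusted p 0.101 in edgeR's test. Cdt1 stood at 2.57, 3.38, 2.43 and 1.3 CPM in WT 1 to WT 4 and 3.71, 4.18, 1.26 and 2.46 CPM in KO 1 to KO 4. For Cdt1, the licensing factor itself, KO 3 was the lowest of the 8 libraries and the groups overlapped (log2 change 0.24 ± 0.37 (SE), adjusted p 0.747 in edgeR). Orc6, an origin recognition subunit, and Cdc6, a helicase loader, had log2 changes of 0.76 and 1.17, and Cdc6 passed with the number series as a covariate (adjusted p 0.0468 in edgeR). Orc1, the largest origin recognition subunit, failed the filter with 1 to 6 counts in WT and 1 to 21 in KO.

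CDC45 and the GINS subunits, which turn the loaded MCM ring into an active helicase, had a median log2 change of 1.37, with 5 of 5 positive and 0 past the adjusted threshold. Gins2 stood at 1.49, 2.65, 1.67 and 2.17 CPM in WT 1 to WT 4 and 9.93, 16.8, 5.83 and 2.04 CPM in KO 1 to KO 4. KO 1 and KO 2 were far above WT for Gins2, while KO 4 lay within the WT range (log2 change 2.10 ± 0.57 (SE), adjusted p 0.102 in edgeR). Gins4 stood at 63.8, 66, 64.9 and 72.5 CPM in WT 1 to WT 4 and 80.6, 95.3, 73.7 and 69.3 CPM in KO 1 to KO 4. Gins4, the most abundant of the 51 genes per length in WT, had the smallest change of the group, and KO 4 was below WT 4 (log2 change 0.25 ± 0.13 (SE), adjusted p 0.265 in edgeR). Cdc45, Gins1 and Gins3 had log2 changes of 1.94, 1.37 and 0.75, and Cdc45 passed with the series covariate (adjusted p 0.0304 in edgeR). Members of 1 complex thus covered a range of log2 changes from 0.25 to 2.10.

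Polymerase and primase genes had a median log2 change of 0.64, with 7 of 8 tested genes positive and 0 past the adjusted threshold. Prim1 stood at 1.44, 4.07, 0.756 and 1.49 CPM in WT 1 to WT 4 and 11.8, 22.6, 10.8 and 3.9 CPM in KO 1 to KO 4. Prim1, the catalytic subunit of primase, was lowest in WT 3, and KO 4 was just below WT 2 (log2 change 2.64 ± 0.65 (SE), adjusted p 0.0893 in edgeR). Prim2, its regulatory partner, had a log2 change of 0.73. Pold3 stood at 8.83, 10.2, 4.43 and 9.48 CPM in WT 1 to WT 4 and 10.7, 14.1, 11.8 and 11.5 CPM in KO 1 to KO 4. Pold3, an accessory subunit of polymerase delta, was higher in every KO than in every WT library by a small margin, with WT 3 well below the other WT libraries (log2 change 0.55 ± 0.23 (SE), adjusted p 0.2 in edgeR). Pold2 stood at 6.57, 7.11, 8.85 and 4.9 CPM in WT 1 to WT 4 and 7.96, 5.28, 6.02 and 5.38 CPM in KO 1 to KO 4. Pold2, another subunit of the same polymerase, had no direction that held across libraries: WT 3 was the highest and WT 4 the lowest (log2 change -0.16 ± 0.22 (SE), adjusted p 0.718 in edgeR). Pola1, Pola2, Pold1 and Pole2 had log2 changes of 1.06, 0.31, 0.38 and 0.96. Prim1 and Pole2 passed with the series covariate (adjusted p 0.0246 and 0.0254 in edgeR). Pole, the catalytic subunit of polymerase epsilon, failed the filter with 0 to 4 counts in WT and 4 to 39 in KO.

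Clamp, clamp loader and Okazaki fragment genes had a median log2 change of 0.79, with 6 of 7 tested genes positive and 0 past the adjusted threshold. Pcna stood at 113, 103, 111 and 99.1 CPM in WT 1 to WT 4 and 163, 202, 131 and 123 CPM in KO 1 to KO 4. For Pcna, the sliding clamp, the groups did not overlap and KO 3 and KO 4 lay nearest to WT (log2 change 0.54 ± 0.15 (SE), adjusted p 0.0822 in edgeR). Lig1 stood at 0.359, 0.343, 0.378 and 0.62 CPM in WT 1 to WT 4 and 2.15, 4.42, 1.49 and 0.696 CPM in KO 1 to KO 4. Lig1, the ligase that joins Okazaki fragments, also had no overlap, but KO 4 was close to WT 4 (log2 change 2.35 ± 0.52 (SE), adjusted p 0.0522 in edgeR). Rfc1 stood at 1.95, 0.834, 2.86 and 2.79 CPM in WT 1 to WT 4 and 1.02, 1.97, 1.17 and 1.02 CPM in KO 1 to KO 4. Rfc1, the large subunit of the clamp loader, went the other way at low level, with WT 2 the lowest library and KO 2 as high as WT 1 (log2 change -0.71 ± 0.39 (SE), adjusted p 0.314 in edgeR). The other loader subunits Rfc2, Rfc3, Rfc4 and Rfc5 had log2 changes of 0.18, 0.79, 1.17 and 0.80. Lig1, Rfc3, Rfc4 and Rfc5 passed with the series covariate (adjusted p 0.045, 0.0322, 0.0492 and 0.0384 in edgeR). Fen1, the flap endonuclease, failed the filter with 8 to 18 counts in WT and 6 to 24 in KO.

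The 3 subunits of RPA, which coats single-stranded DNA, had the smallest median log2 change, 0.39, with 3 of 3 positive and 0 past the adjusted threshold. Rpa3 stood at 42.5, 39, 61.4 and 51.6 CPM in WT 1 to WT 4 and 63, 85.5, 51.4 and 54.4 CPM in KO 1 to KO 4. Rpa2 stood at 25.7, 33.5, 36.1 and 22.1 CPM in WT 1 to WT 4 and 38.7, 51.8, 32.7 and 29.1 CPM in KO 1 to KO 4. Rpa1 stood at 9.9, 14.5, 6.26 and 9.05 CPM in WT 1 to WT 4 and 13.8, 19.7, 15.1 and 12.5 CPM in KO 1 to KO 4. For all 3 the groups overlapped and KO 2 was the highest library. The log2 changes were 0.39 ± 0.18 (SE) for Rpa3, 0.37 ± 0.20 (SE) for Rpa2 and 0.62 ± 0.24 (SE) for Rpa1, with adjusted p of 0.248, 0.301 and 0.164 in edgeR.

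Fork protection and repair genes held 2 of the 3 calls, with a median log2 change of 1.32 and 5 of 5 tested genes positive. Tipin stood at 14.3, 21.5, 16.6 and 19.6 CPM in WT 1 to WT 4 and 40.3, 74.9, 36.6 and 28.6 CPM in KO 1 to KO 4. Tipin (chromosome 9, 64281581 to 64305424, plus strand, GENCODE M21 on GRCm38) encodes a partner of TIMELESS that stabilises paused forks, and the lowest KO library, KO 4, was above the highest WT library, WT 2. Tipin rose by a log2 change of 1.32 ± 0.27 (SE), adjusted p 0.0495 in edgeR, a ratio of mean CPM of 2.51. Rnaseh2b stood at 13, 20, 11 and 15.6 CPM in WT 1 to WT 4 and 28.4, 41.1, 30.5 and 22.5 CPM in KO 1 to KO 4. Rnaseh2b (chromosome 14, 62292589 to 62372992, plus strand) encodes a subunit of the nuclease that removes ribonucleotides from DNA, and WT 2 and KO 4 were again the libraries nearest to each other. Rnaseh2b rose by 1.04 ± 0.21 (SE) on the log2 scale, adjusted p 0.0432 in edgeR, a ratio of 2.05. Over 20 alternative fits the adjusted p ran from 0.000182 to 0.178 for Tipin and from 9.14e-06 to 0.16 for Rnaseh2b, with 7 and 9 fits past the threshold.

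The other fork genes were less even. Rad51ap1 stood at 0.359, 2.01, 0.756 and 0.62 CPM in WT 1 to WT 4 and 5.86, 9.65, 5.83 and 0.789 CPM in KO 1 to KO 4. Rad51ap1, a factor of homologous recombination, had KO 4 within the WT range and the other KO libraries above it (log2 change 2.52 ± 0.77 (SE), adjusted p 0.129 in edgeR). Usp1 stood at 10.9, 12, 7.77 and 9.61 CPM in WT 1 to WT 4 and 8.91, 13.7, 13.5 and 12.6 CPM in KO 1 to KO 4. Usp1, which removes ubiquitin from PCNA, overlapped between genotypes, with KO 1 below 3 of the 4 WT libraries (log2 change 0.27 ± 0.19 (SE), adjusted p 0.434 in edgeR). Exo1, a 5′ exonuclease, had a log2 change of 2.09, on 1 to 11 counts in WT and 7 to 33 in KO. Timeless, which encodes the partner of TIPIN, failed the filter with 6 to 10 counts in WT and 1 to 11 in KO. Clspn, an adaptor of the S phase checkpoint, failed it with 0 to 1 and 1 to 7 counts.

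Chromatin assembly and maintenance genes had a median log2 change of 0.98, with 6 of 8 tested genes positive and 1 past the adjusted threshold. Nasp stood at 17.2, 20, 11 and 18.8 CPM in WT 1 to WT 4 and 33, 39.9, 30.2 and 25.8 CPM in KO 1 to KO 4. Nasp (chromosome 4, 116601052 to 116627941, minus strand) encodes a chaperone of histone H3 and H4, and the groups did not overlap, with KO 4 nearest to WT 2. Nasp rose by 0.94 ± 0.20 (SE) on the log2 scale, adjusted p 0.0432 in edgeR, a ratio of mean CPM of 1.92, and over 20 alternative fits its adjusted p ran from 5.12e-05 to 0.165, with 9 past the threshold. Slbp stood at 151, 188, 154 and 137 CPM in WT 1 to WT 4 and 214, 274, 216 and 193 CPM in KO 1 to KO 4. Slbp, which binds the stem-loop of replication-dependent histone mRNA, had the highest CPM of the 51 genes and no overlap (log2 change 0.51 ± 0.14 (SE), adjusted p 0.0786 in edgeR). Uhrf1 stood at 0.154, 1.03, 0.54 and 0.186 CPM in WT 1 to WT 4 and 3.77, 4.85, 2.15 and 0.557 CPM in KO 1 to KO 4. Uhrf1, which recognises hemimethylated DNA, was at most 1.03 CPM in WT and, in KO 4, within the WT range (log2 change 2.50 ± 0.71 (SE), adjusted p 0.0999 in edgeR).

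Uhrf1 and Dnmt1, which act together to copy methylation onto new DNA, had log2 changes of opposite sign. Dnmt1 stood at 1.13, 0.392, 1.08 and 0.93 CPM in WT 1 to WT 4 and 0.479, 0.676, 0.327 and 0.325 CPM in KO 1 to KO 4. Dnmt1, the maintenance methyltransferase, was detected at low level, and WT 2 lay among the KO libraries (log2 change -0.98 ± 0.44 (SE), adjusted p 0.224 in edgeR). Atad2 stood at 3.39, 1.81, 2.21 and 1.3 CPM in WT 1 to WT 4 and 2.03, 2.27, 2.19 and 1.76 CPM in KO 1 to KO 4. Atad2, a bromodomain ATPase, overlapped between genotypes (log2 change -0.08 ± 0.30 (SE), adjusted p 0.895 in edgeR). Asf1b, a histone chaperone, had a log2 change of 2.48, Chaf1b, a subunit of chromatin assembly factor 1, 1.12, and Hells, a remodeller, 1.02. Chaf1a, the large subunit of that factor, failed the filter with 0 to 3 counts in WT and 0 to 10 in KO.

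**Figure D3:**
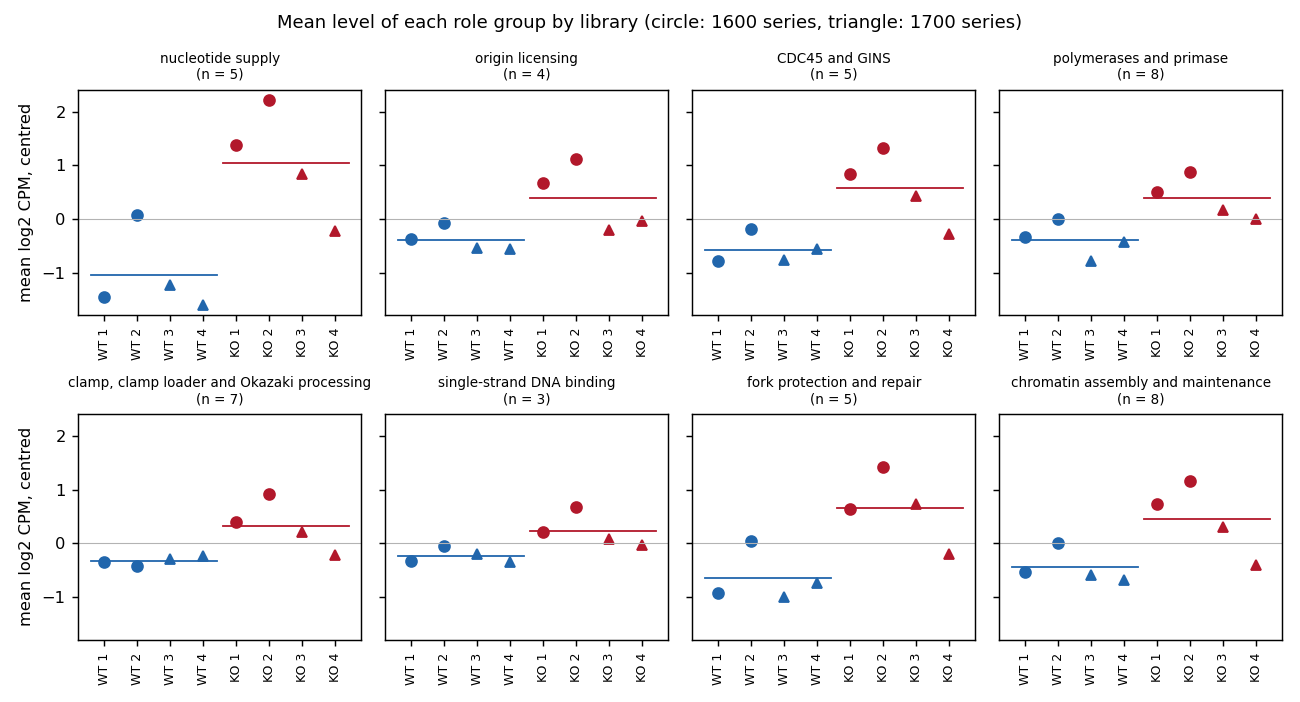
Mean log2 CPM of the tested genes of each role group in each library, centred on the 8 libraries, with circles for the 1600 series, triangles for the 1700 series and lines at the genotype means. WT 2 is the highest WT point in 7 of the 8 panels, and KO 2 is the highest point in every panel.

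Scaled by exon length and library size (RPKM), the levels of the 51 genes in WT covered several orders of magnitude. Gins4 (49.5), Pcna (44.3), Rpa3 (42.8), Slbp (25.9), Gmnn (17.8) and Rfc2 (16.5) were at 10 RPKM or more in WT, 21 genes were between 1 and 10, and 24 were under 1. In KO 13 genes were at 10 RPKM or more and 18 under 1. Asf1b ranked 12 in WT (6.80 RPKM) and 5 in KO (38.1 RPKM), and Rrm2 stood at 2.65 RPKM in WT and 16.9 in KO. The exons of 17 of the 51 genes overlap another annotated gene, 15 of them one on the opposite strand. The sources used here do not give the strand setting of the counting, so that reads of both genes cannot be told apart. Among these, Cdc45, Fen1, Orc6, Rfc2, Rfc4 and Rfc5 overlap a gene with at least 1000 counts. A processed copy of Pcna, Pcna-ps2, held 118 counts over the 8 libraries.

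**Figure D4:**
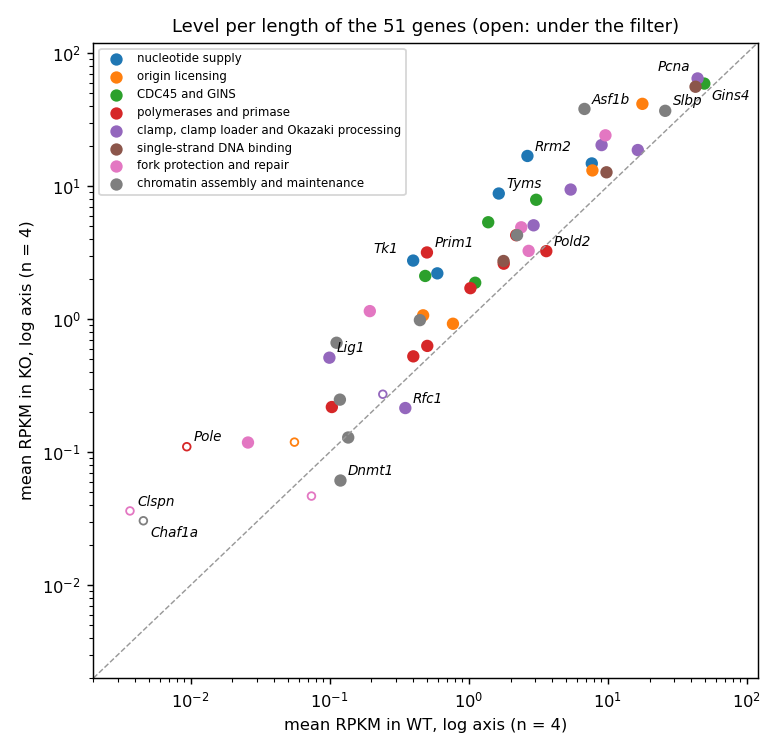
Mean RPKM in KO against mean RPKM in WT for the 51 replication genes on log axes, coloured by role, with open circles for the 6 genes under the filter and a dashed line at equal levels. Most points lie above the line, and Dnmt1, Rfc1, Pold2, Atad2 and the untested Timeless lie below it.

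The genotype difference was then read within each number series, in 1 fit over the 8 libraries. Within the 1600 series the median log2 change of the 45 was 1.00, 41 were positive, beside 46.6% of all genes, and 10 passed the adjusted threshold, all higher in KO, beside 1.14%. Within the 1700 series the median was 0.69, 39 were positive, beside 49.3% of all genes, and 0 passed, beside 0.276%. Both KO libraries were above both WT libraries for 39 members within the 1600 and for 30 within the 1700 series, beside 25.6% and 27.4% of all genes. The log2 change was larger in the 1600 series for 36 members, beside 49.3% of all genes, and it was above 0.5 in both series for 24, beside 3.62%. The interaction of genotype and series, which tests that difference, passed the adjusted threshold in edgeR for 0 of the 45, beside 0.784% of all genes. At an unadjusted p under 0.05 there were 8 members of the 45, a share close to the 16.1% of all genes, and the smallest adjusted p was 0.0915, for Gmnn.

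Gmnn had log2 changes of 1.70 within the 1600 and 0.49 within the 1700 series, and Rpa3 had 0.87 and -0.10. For Rnaseh2b (1.07 and 0.99), Nasp (0.97 and 0.91) and Prim1 (2.64 and 2.72) the values in both series lay close together. With 2 libraries per genotype in each series, a difference between series that fails the test is not shown to be absent.

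**Figure D5:**
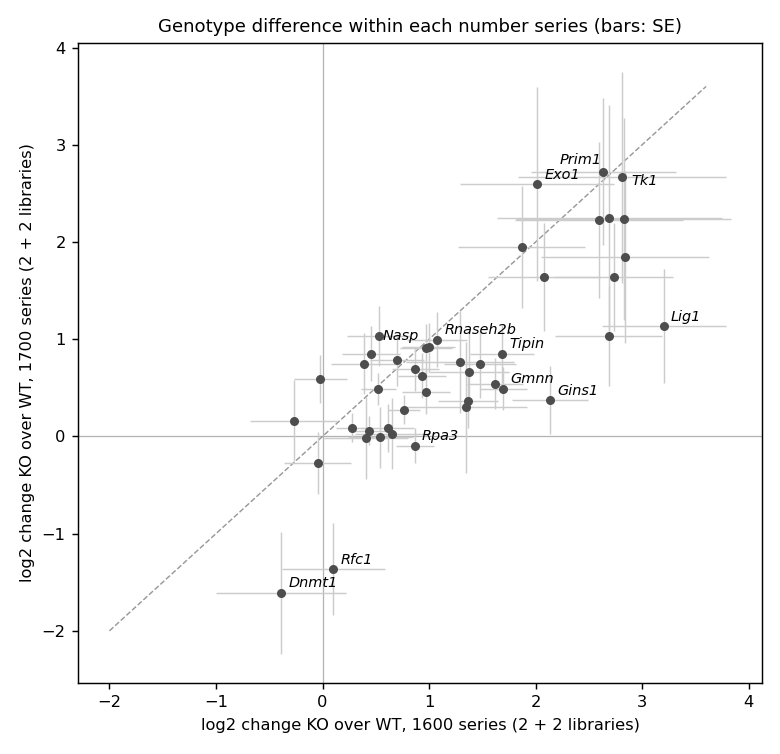
Log2 change, KO over WT, within the 1700 series against that within the 1600 series for the 45 tested replication genes, with SE bars and a dashed line of equal change. For 36 genes the point lies below the line, and Prim1, Tk1 and Exo1 have the largest changes in the 1700 series, while Lig1 has the largest in the 1600 series. The value of Exo1 rests on 1 and 2 counts in WT 3 and WT 4.

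KO 1 and KO 2, where replication genes summed highest, also differed in some other cell markers. The 12 listed progenitor genes summed to 178.5 and 261.7 CPM in KO 1 and KO 2, to 56.89 in KO 3, to 42.08 in KO 4 and to 43.78 to 63.06 in WT. KO 3 lay within the WT range here, and its replication genes summed above every WT library. WT 2, the WT library with the highest replication sum, stood at 47.37 CPM. Of the 12 progenitor genes, Elane stood at 56.7 and 93.1 CPM and Mpo at 3.35 and 5.35 CPM in KO 1 and KO 2. Kit was at most 0.239 CPM in any library. Only 6 of the 12 passed the filter, 4 with a positive and 2 with a negative log2 change. The 11 classical monocyte genes summed to 139900 to 180400 CPM in KO and 116800 to 134900 in WT. The 9 nonclassical genes summed to 528.3 to 670.2 CPM in KO and 604.2 to 760.5 in WT, and the 10 dendritic cell genes to 483.8 to 1988 and 2034 to 2554. The 12 erythroid genes reached 28.42 CPM in KO 3 and 5.131 to 12.66 elsewhere, and the 10 T and NK cell genes 1.334 to 4.485 over all libraries. The 6 megakaryocyte genes were at most 0.3686 CPM. The part of these other cell markers in the result was not tested.

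Across the 8 libraries with the genotype means removed, 33 of the 45 tested members (73.3%) had a Pearson correlation of at least 0.7 with the mean of the other members, beside 5.19% of the 11177 other tested genes with the mean of all members. Tyms (0.995), Chaf1b (0.985) and Rfc5 (0.982) had the highest values, and Dnmt1 (0.0915), Pold2 (0.0668) and Rfc1 (-0.0592) the lowest. The points share libraries and scaling, and WT 2, KO 2 and KO 4 stand furthest from their genotype means, so that these values are a description.

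Neighbouring gene lists of the cell cycle and replication were read beside these values. All 27 tested mitosis and cytokinesis genes had a positive log2 change, median 2.28, with 3 past the adjusted threshold in edgeR: Ect2 (2.05 ± 0.37, SE), Nek2 (2.40 ± 0.46) and Kif11 (3.33 ± 0.65). Of 9 MCM helicase genes 8 were positive, median 1.27, with 0 past the threshold and Mcm3 (1.11) and Mcm6 (1.61) at the smallest p. Of 12 cyclin and CDK genes 10 were positive, median 1.16, with 0 past it and Ccne2 (3.17) and Ccne1 (2.04) first. Of 39 further replication genes 31 were positive, median 0.25, with 0 past it and Asf1a (0.53) among the smallest p. That list includes Top2a and Mcm10, which are also in the mitosis and the MCM list. Checkpoint and homologous repair genes had 15 of 21 positive, median 0.40, led by Chek1 (3.27) and Rad54l (2.79). E2F and RB family genes had 10 of 15 positive, median 0.16, led by Tfdp1 (0.46) and Lin54 (0.77), and genes of dNTP removal and quiescence 5 of 15, median -0.06, with Ccng1 (0.44) and Fbxw7 (-0.87). None of these last 3 lists had a gene past the threshold, and differences between lists were not tested.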

How the data were processed

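Per the labels' protocols, cDNA was primed with oligo-dT and extended by template switching (SMART-Seq v4), then amplified. Such libraries can favour some transcript lengths and depend on RNA quality, and their reads carry no molecular identifiers. The authors deposited raw counts per gene, for which the submitters' processing notes name HISAT2 2.0.5, featureCounts 1.5.0-p3 and GRCm38. The sources used here do not give the annotation, strand setting or filters of the counting.

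All 8 mapped columns were used. Counts of all genes were fitted with edgeR 4.0.16 in R 4.3.3 (filterByExpr, TMM, robust quasi-likelihood test, Benjamini-Hochberg threshold 0.05), and only members were read out. The filter kept 99.9% of the counts. Log2 CPM used a prior count of 2. The biological coefficient of variation was 22.4%. GENCODE M21 gave coordinates and lengths for 51 members.

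The members, gene lists, tests and alternatives were chosen with earlier results of these data known. Members were named with library values where they passed the threshold, had a negative log2 change, or had the highest mean CPM, largest or smallest change of their role, which gave 25, and of each pathway list the genes past 0.05 and the 2 with the smallest p were named. Some genes that the rule names are left out of the text. The counts above a log2 change of 1 and 2, the library orders, the correlations between members, the promoter words and the promoters printed were chosen after values had been seen.

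Alternatives were RLE and upper-quartile scaling, DESeq2 1.42.0, limma-voom 3.58.1, other filters, covariates, length and GC offsets (mgcv 1.9.3), libraries or series left out, and a threshold of 0.1. The fits were tested on simulated counts first. There, 4.97% of the edgeR calls, 10.6% of the DESeq2 calls and 4.4% of the limma-voom calls were false. Figures were drawn with matplotlib 3.10.9.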

Additional observations from a re-analysis of the deposited data

Results flagged for a closer look

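In groups of 4 libraries, 8 of 110 groups of values had 1 library further from the others than Dixon's 95% limit, where 1 in 20 would give 5.5. WT 2 accounts for 5 of them. Among single genes it stood apart for Tyms, at 17.3 CPM against 7.07 to 7.95 in the other WT libraries, Cdc45 at 9.56 against 3.04 to 3.54, Rfc5 at 31.6 against 23.0 to 23.4, and Asf1b at 32.7 against 8.62 to 12.3. The fifth is the mean log2 level of the 45 tested members in WT 2, at -0.0823 against -0.685 to -0.615. KO 2 stood apart for Pola1, at 3.5 CPM against 1.32 to 1.49, and for Rfc1, at 1.97 against 1.02 to 1.17. WT 4 stood apart for Lig1, at 0.62 CPM against 0.343 to 0.378.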

How the results depend on the processing

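The median log2 change of the tested members stayed positive in each of the 20 alternatives fitted, from 0.51 without KO 1 and KO 2 to 1.07 without WT 2, and members lower in KO numbered 0 in each. The number of members higher in KO (3) and of all genes called (119) did not hold. They became 27 and 784 with DESeq2, 0 and 0 with limma-voom, 16 and 742 with no filter on low counts, 13 and 251 with the number series as covariate, 0 and 1 with length and GC offsets, 0 and 7 without KO 1 and KO 2, and 14 and 611 at an adjusted p under 0.1. Members numbered 7 in the 1600 series alone and 0 in the 1700 series alone, beside 0.644% and 0.182% of all genes called higher. Leaving out 1 library gave 0 to 18 members and 0 to 515 genes. The cause was not tested. Members with an interaction past the threshold numbered 5 with no filter, 2 at an adjusted p under 0.1, and 0 to 2 with 1 library left out. The share of all genes was not counted for these interaction fits, so that these numbers cannot be set against it.

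With the replicate block, 15 members and 244 genes were called. Same-numbered libraries did not deviate together (r from -0.0494 to 0.0926), so that the numbers are not taken as pairs.

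Over all 45 tested members, 13 of 896 values changed direction. These included 4 of 45 without KO 1 and KO 2 (Cdt1, Hells, Pola2 and Pold1) and 4 of 44 in the 1700 series alone (Atad2, Cdt1, Pola2 and Rpa3). Among the 25 named members the changes were Cdt1 without KO 1 and KO 2 (-0.38) and in the 1700 series alone (-0.017), Rpa3 in the 1700 series alone (-0.096), Usp1 in the 1600 series alone (-0.037), Rfc1 there (0.086), Pold2 with length and GC offsets (0.13), and Atad2 in the 1700 series alone (0.16) and, with 1 library left out, from -0.26 without WT 4 to 0.21 without WT 1. At these depths, the 6 members under the filter were not compared in the main fit. Pole, which is among them, is counted in the calls with no filter, without KO 4 and in the 1600 series alone. Its counts were 0 to 4 in WT and 4 to 39 in KO, so that those calls rest on few reads.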
